A study of Acomys cahirinus and Mus musculus with 10 samples.

Results

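Ear tissue that had not been injured (D0) was compared between the spiny mouse *Acomys cahirinus* and the house mouse *Mus musculus*, that is, between 2 of the 10 samples of the series. The other 8 samples are healing ear at D5, D10, D15 and D20 after a punch of 4 mm and were used here only to recover the D0 reads. Each D0 sample stands for 3 sexually mature females of its species, and the study's methods name the *Mus* animals as CD1, an outbred stock. The study names no allele, transgene or agent for the sequenced animals of either group, and coat colour is not in the labels. Tissue was a frozen ring of pinna from the punched site, so each library holds skin of both ear faces, the cartilage plate and whatever muscle, fat, vessel and nerve the ring contained. Total RNA was depleted of ribosomal RNA and sequenced in directional libraries of paired 50-bp reads. Reads were mapped to a de novo assembly in *Acomys* and to the mm10 gene annotation in *Mus*, and the 2 species were normalised separately. The study fed *Acomys* mouse chow mixed with sunflower seeds and CD1 mice chow only. Species, feed, reference, housing and normalisation therefore cannot be told apart in any comparison below. Calls rest on ranks within a species. Log2 differences centred within each library and shares of paired reads are given beside them. Read values printed side by side carry the separate normalisation of each species. In bulk tissue, fewer cells of a type and less RNA per cell cannot be told apart either.

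The pinna is a sheet of cartilage covered on each face by thin haired skin. Its dermis is built from collagen fibrils, whose spacing is set by small leucine-rich proteoglycans, and from elastic fibres, in which elastin is laid on a scaffold of fibrillins, fibulins and microfibril proteins and cross-linked by lysyl oxidases. Hair follicles, sebaceous glands, dermal fat, pigment cells, nerves and resident immune cells lie within this layer. Spiny mice are known for closing large ear holes and for weak, easily shed skin, whereas most house mice keep an open hole with a scarred rim.

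Genes were paired across the species as reciprocal best BLASTN hits by bit score below 99% identity, which gave 13596 pairs, of which 13514 had a D0 value in both species. The median pair was 91.19% identical over an alignment of 1189 bases. Stretches of 90 coding bases from 5 pairs show what such a match looks like, with the bases that differ in capitals. They were taken from the deposited references of both species, and exon and position refer to the *Mus* gene in GRCm38. The first pair is *Penk*, which encodes proenkephalin, the precursor of enkephalin peptides, and ranked far lower in *Acomys* than in *Mus*. Its stretch lies at chr4:4134214-4134303 on the minus strand in exon 2 of 2, holds 10 differences and includes the codons of a Met-enkephalin.
Penk Mus: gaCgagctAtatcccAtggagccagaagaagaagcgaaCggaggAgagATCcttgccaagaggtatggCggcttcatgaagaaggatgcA
Penk Acomys: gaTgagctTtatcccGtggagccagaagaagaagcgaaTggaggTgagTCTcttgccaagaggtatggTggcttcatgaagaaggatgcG
The next is *Omd*, which encodes osteomodulin, a small leucine-rich proteoglycan, at chr13:49589531-49589620 on the plus strand in exon 2 of 3, with 8 differences.
Omd Mus: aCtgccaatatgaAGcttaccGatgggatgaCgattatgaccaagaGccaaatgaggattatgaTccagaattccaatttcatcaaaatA
Omd Acomys: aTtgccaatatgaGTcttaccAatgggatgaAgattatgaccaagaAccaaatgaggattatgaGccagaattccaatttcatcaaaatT
*Nqo1* encodes a quinone reductase of the antioxidant response, and its stretch at chr8:107392906-107392995 on the minus strand in exon 2 of 6 holds 8 differences.
Nqo1 Mus: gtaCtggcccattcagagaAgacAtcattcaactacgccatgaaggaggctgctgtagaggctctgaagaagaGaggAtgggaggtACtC
Nqo1 Acomys: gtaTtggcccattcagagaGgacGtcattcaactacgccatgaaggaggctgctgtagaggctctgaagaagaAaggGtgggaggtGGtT
*Adipoq* encodes adiponectin, a hormone of fat cells, and its stretch at chr16:23155314-23155403 on the plus strand in exon 2 of 3 holds 9 differences.
Adipoq Mus: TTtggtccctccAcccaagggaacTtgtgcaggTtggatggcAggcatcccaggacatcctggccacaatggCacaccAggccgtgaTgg
Adipoq Acomys: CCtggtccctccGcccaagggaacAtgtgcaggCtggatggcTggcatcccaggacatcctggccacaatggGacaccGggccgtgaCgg
*Lum* encodes lumican, another small leucine-rich proteoglycan, and its stretch at chr10:97571913-97572002 on the plus strand in exon 3 of 3 holds 13 differences.
Lum Mus: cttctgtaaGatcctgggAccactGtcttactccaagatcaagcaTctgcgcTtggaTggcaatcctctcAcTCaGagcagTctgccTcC
Lum Acomys: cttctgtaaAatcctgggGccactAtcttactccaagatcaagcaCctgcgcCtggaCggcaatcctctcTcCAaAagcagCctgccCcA
The *Lum* pair is shown because the assembly also holds a contig of 514 bases that is 100% identical to the *Mus* transcript and contains this *Mus* stretch whole. Contigs of that kind were kept out of the pairs.

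The reads of the 3 libraries behind each D0 mean were recovered from the 4 tables of each species. Libraries are numbered by size here, the largest as library 1, and are read as the 3 animals. The *Acomys* libraries held 18659216, 16425723 and 14888622 reads and the *Mus* libraries 7873749, 6905179 and 5922744. Of these reads, 46.4% to 46.8% fell in pairs in *Acomys* and 84.9% to 85.1% in *Mus*. Ranks of the paired levels correlated between libraries of a species with a Spearman coefficient of 0.988 to 0.993. The median SD of log2 reads between libraries was 0.11 in *Acomys* and 0.14 in *Mus*. *Acomys* library 3 stood apart in the contigs left out of the pairs. The assembly held 290 components at least 99% identical to a *Mus* transcript, and 236 of them had a mean under 10 normalised reads. Their summed normalised reads were 110.8 in library 1, 133.8 in library 2 and 1704 in library 3, so that 87.5% were in library 3. Components under 95% identity with equally low means had 33.3% of theirs in library 3. Without that library 96.7% of the calls below were kept, and leaving out any other library kept 95.8% to 96.5%.

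**Figure D1:**
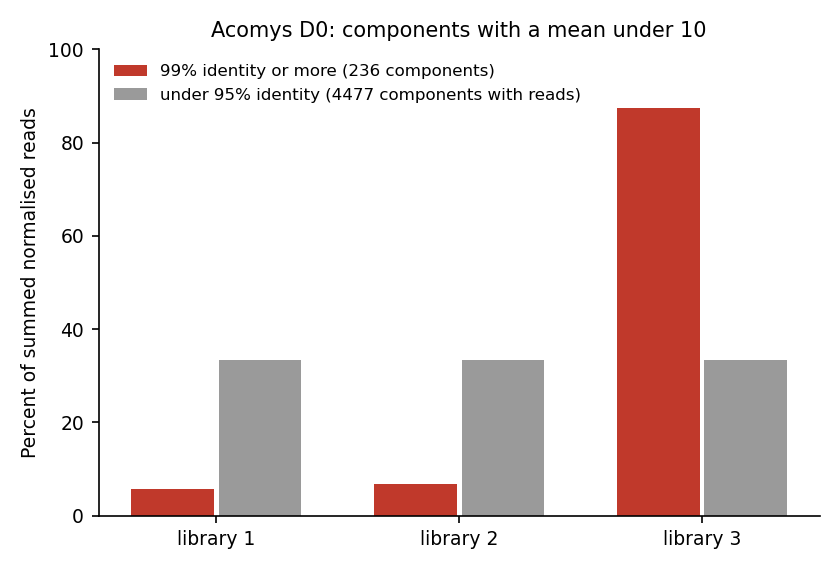
Percent of summed normalised reads found in each of the 3 *Acomys* D0 libraries, for assembly components with a mean under 10. Red bars are 236 components of at least 99% identity to a *Mus* transcript, with 87.5% in library 3, and grey bars are 4477 components under 95% identity, with 33.3% in library 3.

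A level is the mean number of normalised reads of the whole *Acomys* component or *Mus* gene, divided by the length in kb of its paired contig or transcript. A component or gene can hold further contigs or transcripts, whose reads are counted too. The percentile of a level is its rank among all pairs of that species, from the lowest at 0 to the highest at 100. Differences are given as *Acomys* minus *Mus* percentile points. A pair was called different when limma on rank scores of the single libraries gave an adjusted p under 0.05 and the percentiles were at least 20 points apart. Log2 differences are of reads per kb in each library centred on its median pair, given with their standard error (SE). They are quoted as well because percentiles hardly move between very high levels. Every adjusted p quoted is from limma on the rank scores, also where it stands beside a log2 difference. Calls of described members that were lost when levels were not divided by length (unscaled), or when all components of a gene were summed (summed), are given beside them.

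The uninjured ears of the 2 species had broadly similar rank orders, with a Spearman correlation of 0.814 over the 13514 pairs, a description across genes that are not replicates. Single libraries of different species correlated at 0.806 to 0.812. Library percentiles of the 2 species did not overlap in 5116 pairs higher in *Acomys* and 5241 higher in *Mus*, so lack of overlap was common. Of all pairs, 7560 lay within 10 points of each other and the median absolute difference was 8.52 points. The adjusted p was under 0.05 for 9840 pairs, and 1306 of the pairs (9.66%) were called higher in *Acomys* and 1267 (9.38%) higher in *Mus*. By a centred log2 difference of at least 1 in place of points, 2457 (18.2%) were higher in *Acomys* and 2241 (16.6%) in *Mus*. The tenth of pairs with the highest levels had 794 of 1351 members in common, 58.8% of each list. In 268 pairs the percentiles were 50 points or more apart. Of these, 148 were higher in *Acomys* and 120 in *Mus*.

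2 features of the pairs moved with the direction of the calls. An *Acomys* component that also matches other genes made up 18.1% of the pairs called higher in *Acomys*, 3.39% of those called higher in *Mus* and 5.42% of those not called. A *Mus* transcript under 50% of the contig's length made up 3.83%, 11.6% and 3.36% in the same order. The *Mus* gene number was known from the study's own listing for 1987 pairs and placed by inference for 11527. Of these, 10 with a known number (0.50%) and 258 with a placed number (2.24%) were 50 points or more apart, but their median alignments were 2647 and 1039 bases. Among pairs aligned over 1500 bases or more, 10 of 1986 with a known number (0.50%) and 33 of 2918 with a placed number (1.13%) were 50 points or more apart. The part of wrongly placed numbers in the largest differences was not tested.

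**Figure D2:**
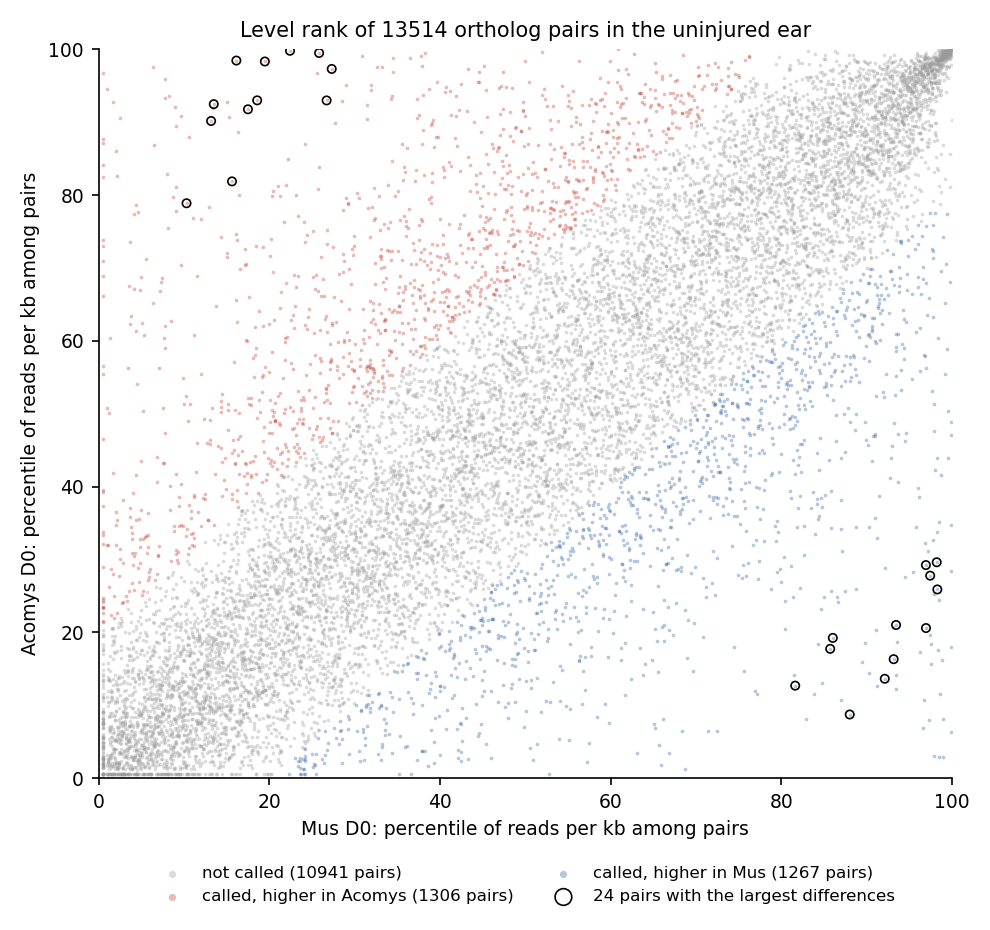
Percentile of the D0 level (reads per kb) of each of the 13514 pairs in *Mus* (horizontal axis) and *Acomys* (vertical axis). The 1306 red points were called higher in *Acomys*, the 1267 blue points higher in *Mus*, and the 24 circled pairs are those with the largest differences, which sit in the upper left and lower right corners.

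The largest differences were taken from pairs with a mean of 10 normalised reads or more in both species, an alignment of at least 500 bases, and the same direction by at least 20 points both unscaled and summed. Within these limits, the 12 genes furthest above their *Mus* rank in *Acomys* ranged from 66.2 to 82.3 points, and all were called. Those in components that match 1 gene were *Nlrp1b*, an inflammasome sensor, *Serpina1b* and *Serpinb11*, serine protease inhibitors, *Hdc*, the enzyme that makes histamine, and *Rad51c*, a recombination repair protein. *Hdc* had 287, 292 and 286 normalised reads in the 3 *Acomys* libraries and 10.8, 10.8 and 14.3 in the 3 *Mus* libraries. The groups did not overlap, the difference was 68.6 points and 4.95 ± 0.15 on the log2 scale, and the adjusted p was 8.8e-09. Unscaled, *Hdc* lay at 44.99 points and *Rad51c* at 33.9. *Nlrp1b* had 1029, 960.5 and 1031 normalised reads in *Acomys* and 38.0, 33.9 and 26.3 in *Mus*, a difference of 79.0 points (log2 5.46 ± 0.13, adjusted p = 5.7e-09). *Serpina1b*, a liver antitrypsin in textbooks, had 588, 560.5 and 593 in *Acomys* and 6.30, 13.3 and 12.4 in *Mus*. Its value is uncertain because *Mus* carries several near-identical copies among which reads can be split, and its gene number was placed with a posterior of 0.953.

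The other 7 of these 12 lay in components whose contigs also match another gene or unnamed transcript. *Krt71*, a keratin of the inner root sheath of hair, had 8844, 8639 and 9944 normalised reads in *Acomys* against 9.59, 66.4 and 44.6 in *Mus*, where library 1 was the lowest. Its component also matches the keratins *Krt2* and *Krt77*. *Clip3*, which encodes a microtubule-linker protein, had 10360, 9742 and 9544 in *Acomys* and 69.5, 74.5 and 89.2 in *Mus*, from a component that also matches *Ptma*, which encodes the abundant nuclear protein prothymosin. *Gnas*, the stimulatory G protein subunit, differed by 82.3 points, but *Mus* has another gene number of that name with a mean of 2785 normalised reads against 26.4 for the paired number, which was placed with a posterior of 0.967. *Prss27* (a serine protease), *Adcy4* (an adenylyl cyclase), *Gsta3* (a glutathione transferase) and *Ercc8* (a DNA repair protein) differed by 66.3 to 78.8 points. The *Mus* number of *Ercc8* was placed with a posterior of 0.972, and its component also matches *Gabarapl2*.

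Within the same limits, the 12 genes furthest below their *Mus* rank in *Acomys* ranged from -79.3 to -66.8 points, all called, and each lay in a component that matches 1 gene. *Mmp12*, the macrophage elastase, had 11.7, 4.09 and 19.5 normalised reads in *Acomys* and 870.3, 1090 and 1021 in *Mus*. Every *Acomys* library was far below every *Mus* library, the log2 difference was -6.02 ± 0.42 and the adjusted p was 5.6e-07. Only 35.35% of the *Mmp12* contig aligned to the *Mus* transcript. Summed, the difference of *Mmp12* was -25.2 points against -79.3, that of *Paqr7* -30.1 against -66.8 and that of *Prlr* -45.7 against -69.0. *Corin*, a transmembrane protease that processes natriuretic peptide and is also made in the dermal papilla, had 44.1, 45.0 and 40.2 in *Acomys* and 1865, 1839 and 1708 in *Mus* (log2 -5.43 ± 0.10, adjusted p = 2.5e-09). *Alox12e*, an epidermal lipoxygenase, had 55.0, 45.0 and 36.7 against 2132, 1891 and 1149, and *Clca2*, a membrane protein of stratified epithelia, had 86.5, 100.2 and 99.8 against 1870, 1666 and 1449. The groups did not overlap for either gene, with log2 differences of -5.48 and -4.66. *Prlr*, the prolactin receptor, differed by -69.0 points and *Neil3*, a DNA glycosylase, by -68.0 points. *Omd* is described with its family below. *Ccdc138*, *Ccdc82*, *Grk4* (a G protein-coupled receptor kinase), *Fam110b* and *Paqr7* (a membrane progestin receptor) differed by -76.9 to -66.8 points. Of these 24 genes, the *Mus* number of *Fam110b* alone was in the study's listing.

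**Figure D3:**
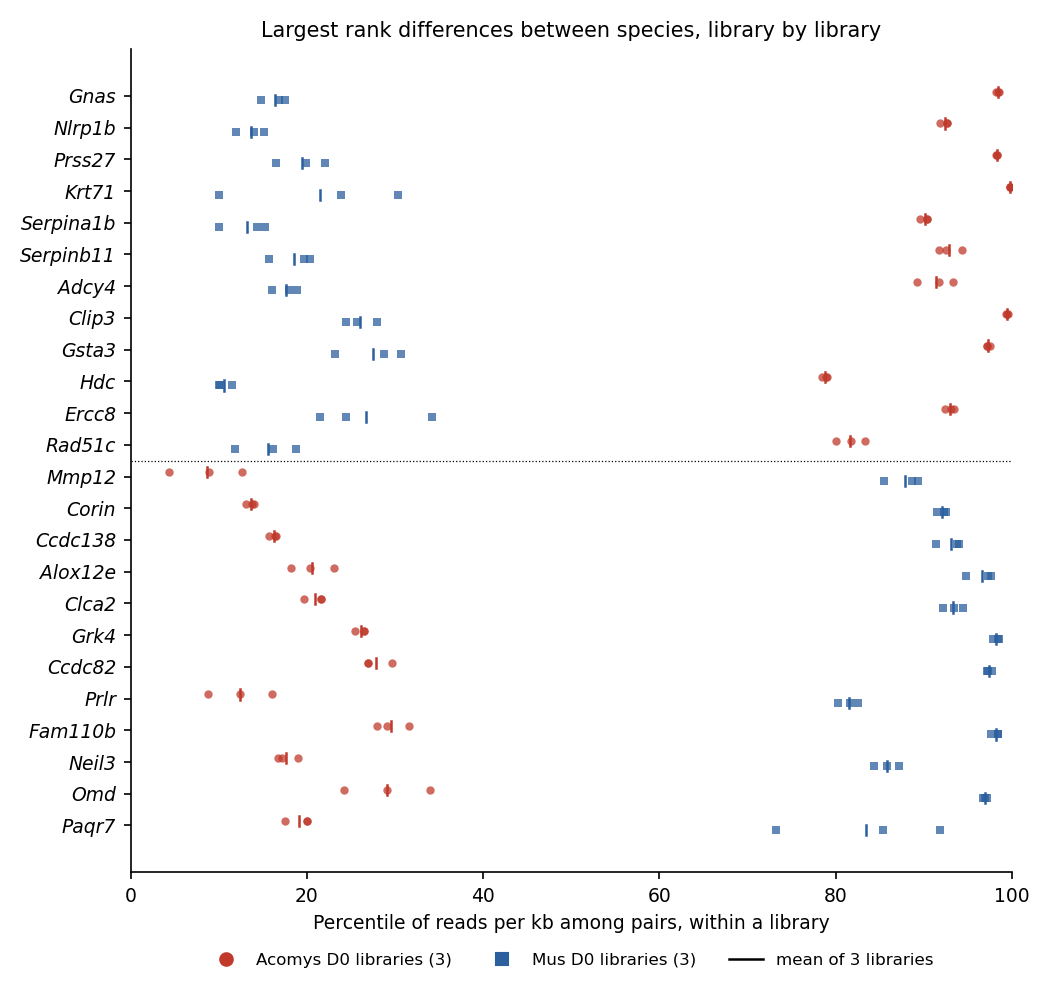
Percentile of each D0 library (horizontal axis, 3 red circles for *Acomys*, 3 blue squares for *Mus*, bars for the means) for the 24 genes with the largest differences. The 12 genes above the dotted line were called higher in *Acomys* and the 12 below it higher in *Mus*, and in none do the libraries of the 2 species overlap. Over all 13514 pairs, libraries did not overlap in 5116 higher in *Acomys* and 5241 higher in *Mus*.

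Both species had the RNA subunits *Rprl3* and *Rmrp*, the mitochondrial cytochrome oxidase subunit *mt-Co1*, the nuclear RNA *Malat1*, the elongation factor *Eef1a1* and the suprabasal keratin *Krt10* among their 10 highest levels per kb. The other 4 in *Acomys* were *Rexo4*, *Hrnr* (hornerin of the cornified layer), *Col3a1* (type III collagen) and *Rps4x* (a ribosomal protein). Contigs of *Hrnr* and *Col3a1* were 603 and 1043 bases against *Mus* transcripts of 10658 and 5564, and both genes had fewer normalised reads in *Acomys* than in *Mus*. In *Mus* the others included the mitochondrial subunits *mt-Atp6* and *mt-Nd4*, and *Gm26917*. *Rexo4*, an exonuclease gene, had 207300, 161600 and 178100 normalised reads in *Acomys* and 216, 195 and 241 in *Mus*, a log2 difference of 9.24 ± 0.12. Only 34.4% of its contig aligned to the *Mus* transcript. Its *Mus* number was placed with a posterior of 0.966. *Gm26917* had 52.3, 32.7 and 552 in *Acomys*, high in library 3 only, and 91660, 123400 and 117100 in *Mus*, but its difference of -51.1 points became 0.03 when all components of the gene were summed. *Acan* and *Krt10*, markers of cartilage and of suprabasal epidermis, ranked high in both species, but the whole cartilage list had lower median percentiles. These were 67.5 in *Acomys* and 58.0 in *Mus*. *Acan*, the main cartilage proteoglycan, was at the 95.5 percentile in *Acomys* and the 96.1 in *Mus*, and *Krt10* at the 99.9 percentile in both.

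Of 13 paired members of the adipocyte list, 6 were called higher in *Acomys* and 0 higher in *Mus*, with a median of 18.5 points against -0.14 points over all pairs. Over all pairs 9.66% were called higher in *Acomys* and 9.38% higher in *Mus*, which is the background for each list below. Counts given as a pair are those higher in *Acomys*, then those higher in *Mus*. The counts for *Acomys* and *Mus* were 6 and 0 unscaled (median 12.6 points) and 6 and 0 summed (median 15.7). Among the 34 lists, 10 had a median at least 5 points from 0. *Adipoq* had 1490, 1489 and 988 normalised reads in *Acomys* and 139, 133 and 142 in *Mus*. *Acomys* library 3 was the lowest of its group and still far above every *Mus* library. The difference was 30.2 points (log2 2.37 ± 0.14, adjusted p = 8.7e-07). *Retn*, which encodes the fat hormone resistin, had 192, 215 and 110.2 in *Acomys* and 11.99, 28.4 and 15.9 in *Mus*, a difference of 60.1 points, or 29.4 unscaled. *Cidec* and *Plin1*, coat proteins of lipid droplets, had 963, 938 and 548 and 766, 981 and 671 in *Acomys* against 82.7, 125 and 132 and 122, 130.0 and 169 in *Mus*. Both were again lowest in *Acomys* library 3 and did not overlap between species. *Cfd*, the protease adipsin, differed by 24.2 points and *Lep*, the hormone leptin, by 21.4 points. *Lep* lay at 7.43 points unscaled, which ends its call, as does leaving out *Acomys* library 2 (15.6 points). *Pparg*, the regulator of fat cell identity, was not called at 18.5 points (log2 0.90 ± 0.07), but was called at 22.4 points unscaled. *Fabp4*, the fatty acid carrier of fat cells, was near the top in both species, with 5937, 5729 and 4555 in *Acomys* and 849.8, 798 and 934 in *Mus*, a log2 difference of 2.11 ± 0.12. The lipases *Pnpla2* and *Lipe* were not called, at -5.5 and 6.37 points. Summed over the list, fat genes held 0.46%, 0.46% and 0.36% of all paired reads per kb in the *Acomys* libraries and 0.09%, 0.09% and 0.10% in the *Mus* libraries.

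Of 15 elastic fibre genes, 6 were called higher in *Acomys* and 0 higher in *Mus*, with a median of 11.6 points, where 9.66% of all pairs were called higher in *Acomys*. The called members included fibulins, microfibril proteins and a cross-linking enzyme. *Fbln5*, the fibulin that tethers elastin to cells, had 743, 719 and 698 normalised reads in *Acomys* and 186, 221 and 209 in *Mus*. Libraries of each species lay close together and far from the other species, with a difference of 47.1 points (log2 2.36 ± 0.09, adjusted p = 7.4e-08), or 26.99 points unscaled. *Loxl1*, a lysyl oxidase needed for elastic fibre upkeep, had 2419, 2094 and 1646 against 207, 164 and 199, a difference of 52.5 points, from a component that also matches *Lox* and *Luc7l2*. *Mfap5*, a microfibril glycoprotein, had 533, 584 and 527 against 89.9, 93.5 and 89.2 (log2 2.12 ± 0.07, adjusted p = 5.0e-08). *Ltbp1*, which holds latent TGF-beta in the matrix and shares its component with *Gtf2h1*, differed by 28.6 points, *Mfap2* by 21.3 and *Fbln2* by 21.2. Unscaled, *Ltbp1* (14.8 points) and *Fbln2* (13.3) lost their calls, and summed, *Mfap2* (14.8) and *Fbln2* (18.9) lost theirs. Without *Acomys* library 1 *Mfap2* was not called either (14.8 points), which leaves 5 called and a median of 8.55. These counts became 4 and 0 unscaled, with a median of 13.3 points, and 4 and 0 summed, with a median of 7.79. Elastin and the main fibrillin did not pass both thresholds. *Eln*, elastin itself, had 4496, 3723 and 2317 in *Acomys* and 1692, 1723 and 2164 in *Mus*, with a log2 difference of -0.12 ± 0.21 and an adjusted p of 0.85. *Fbn1*, the main fibrillin, had 5493, 5731 and 4353 against 3349, 3337 and 3414, which is 7.19 points and 1.53 ± 0.10 on the log2 scale. The elastic fibre list held 0.25%, 0.23% and 0.18% of paired reads per kb in *Acomys* and 0.08% in each *Mus* library.

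The small leucine-rich proteoglycans, which bind collagen fibrils, had 0 of 9 called higher in *Acomys*, 3 higher in *Mus* and a median of -8.7 points. Over all pairs 9.66% were called higher in *Acomys* and 9.38% in *Mus*. With unscaled levels 0 and 1 were called (median -5.97 points), and with summed components 0 and 3 (median -13.5). *Omd*, whose sequences are given above, had 71.5, 53.2 and 92.3 normalised reads in *Acomys* and 1177, 1250 and 1093 in *Mus*. No library of the 2 species overlapped, and the difference was -67.7 points (log2 -4.72 ± 0.17, adjusted p = 2.7e-08). *Prelp* had 597, 517 and 533 against 1296, 1181 and 1047, a difference of -21.6 points, and *Fmod*, fibromodulin, had 841, 658 and 495 against 2686, 2243 and 2454. *Fmod* lay at the threshold with -20.01 points, and leaving out single libraries left 2 or 3 members called. Unscaled, *Prelp* (-18.2 points) and *Fmod* (-19.0) lost their calls. *Lum* was not called, with 1942, 1398 and 1310 in *Acomys* and 1118, 1066 and 1079 in *Mus*, mean levels of 526 and 524 normalised reads per kb. With hits of 99% identity or more kept, *Lum* lay at -86.1 points and was called higher in *Mus*. *Bgn*, biglycan, with a log2 difference of -1.53 ± 0.14, and *Aspn* and *Ogn*, at 1.3 and 5.98 points, were not called either.

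Among 13 dermal collagens only *Col12a1*, a collagen on fibril surfaces, was called, with 6125, 5728 and 4348 normalised reads in *Acomys* and 1835, 1779 and 1841 in *Mus* (log2 2.89 ± 0.11). Its difference was 22.7 points but 3.57 points unscaled, which leaves 0 of the 13 called. Calls numbered 0 and 0 unscaled (median 0 points) and 1 and 0 summed (median 0.355). By a log2 difference of at least 1, 2 of the 13 were higher in *Acomys* and 3 in *Mus*. The fibril collagens *Col1a1*, *Col1a2* and *Col3a1* were within 1 point of each other at the top of both rank orders. Their log2 differences per kb were 0.91 ± 0.21, -1.11 ± 0.18 and 1.11 ± 0.23. The *Col3a1* value rests on a contig of 1043 bases against a *Mus* transcript of 5564. Before division by length, *Col3a1* had a mean of 15710 normalised reads in *Acomys* and 27080 in *Mus*. Shares of the list use the same lengths. The list's share was 1.04%, 0.89% and 0.59% in the *Acomys* libraries, lowest in library 3, and the *Mus* libraries held 0.50%, 0.37% and 0.46%. Of 15 basement membrane genes, 2 were called in each direction, with *Lamb1* and *Nid2*, proteins of vessel and muscle basement membranes among others, called higher in *Acomys*. *Col7a1*, the anchoring fibril that holds epidermis to dermis, had 627, 656 and 536 in *Acomys* and 1374, 1379 and 1380 in *Mus* and was called higher in *Mus*, with a difference of -38.6 points (log2 -1.90 ± 0.10, adjusted p = 2.3e-07). Unscaled, *Col7a1* lay at -17.4 points and *Lamb1* at 18.7, which ends both calls, and summed *Nid2* lay at 13.7. *Nid2* was also not called without *Acomys* library 1 (18.7 points), *Acomys* library 2 (16.5) or *Mus* library 1 (19.1). Without *Acomys* library 1 or 2 the list had 1 call in each direction. For *Acomys* and *Mus* the counts were 1 and 0 unscaled (median -0.252 points) and 1 and 4 summed (median 1.38). The laminin chains *Lama3* and *Lamb3* were not called, at -6.83 and -16.01 points, but *Lamb3* was called at -22.7 points summed.

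Of 10 genes of provisional matrix, *Tnn*, tenascin N, was called higher in *Acomys* (30.7 points) and no other. The list had 1 and 0 calls unscaled (median -0.152 points) and 1 and 1 summed (median 0.215). *Cthrc1*, a secreted collagen triple helix repeat protein, was the member called higher in *Mus* summed (-23.1 points), and the counts were also 1 and 1 without *Acomys* library 1. *Tnc*, tenascin C, had 1524, 898 and 558 normalised reads in *Acomys* and 1608, 1184 and 1387 in *Mus*, and *Fn1*, fibronectin, had 7513, 6222 and 4441 and 11090, 9582 and 8578. *Acomys* library 3 was the lowest for both, and neither was called. *Postn*, periostin, had 58540, 61150 and 47740 in *Acomys* and 7531, 4822 and 4865 in *Mus*, a log2 difference of 2.16 ± 0.18 that is 1.22 points at the top of the range. In the list of 9 matrix metalloproteinases and their inhibitors, which does not hold *Mmp12*, only *Mmp3*, stromelysin, was called higher in *Mus* (-30.7 points, -19.9 unscaled and then not called) and none higher in *Acomys*. *Mmp11*, another member, was called higher in *Acomys* unscaled (20.1 points). Unscaled, the counts were 1 higher in *Acomys* and 0 higher in *Mus* (median 0.592 points), and summed 0 and 1 (median -0.718). *Mmp13*, a collagenase, was low in both species, with 9.91, 5.11 and 2.29 in *Acomys* and 2.40, 1.35 and 1.59 in *Mus*. *A2m*, a broad protease inhibitor, had 214, 171 and 120.5 against 729.9, 529.6 and 931 and was called higher in *Mus* (-48.1 points). *Penk* had 9.01, 8.18 and 4.59 normalised reads in *Acomys* and 1092, 1247 and 782 in *Mus*. A few reads in each *Acomys* library stood against high levels in every *Mus* library. This was -89.4 points, with a log2 difference of -7.43 ± 0.23 and an adjusted p of 1.9e-08.

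The cartilage list held 3 members called in each direction among 17, with a median of 8.4 points. The counts for *Acomys* and *Mus* were 4 and 3 unscaled (median 7.06 points) and 4 and 3 summed (median 7.16). *Epyc*, epiphycan of growth cartilage, had 290.1, 246 and 197 normalised reads in *Acomys* and 2.40, 1.35 and 1.59 in *Mus*, a difference of 63.9 points (log2 6.17 ± 0.23, adjusted p = 2.7e-07). *Matn4* and *Mia* were higher in *Acomys* by 28.7 and 23.2 points. *Chad*, chondroadherin, had 275, 244 and 257 in *Acomys* and 1040, 1377 and 1206 in *Mus* and was called higher in *Mus* (log2 -3.07 ± 0.10), as were the cartilage collagen gene *Col9a1* and *Ucma* at -25.2 and -20.02 points. *Mia* (19.2 unscaled, 17.2 summed) and *Ucma* (-5.84 unscaled) lost their calls. *Ucma* also lost its call without *Acomys* library 1 (-19.8 points), *Acomys* library 2 (-19.3) or *Mus* library 2 (-17.1), which leaves 2 members called higher in *Mus*. *Acan* and *Sox9* differed by under 1 point. *Acan* was at 5995, 5412 and 4210 against 3989, 4188 and 5276 and *Sox9*, the master regulator of cartilage, at 424, 313 and 296 against 624, 666 and 739.

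**Figure D4:**
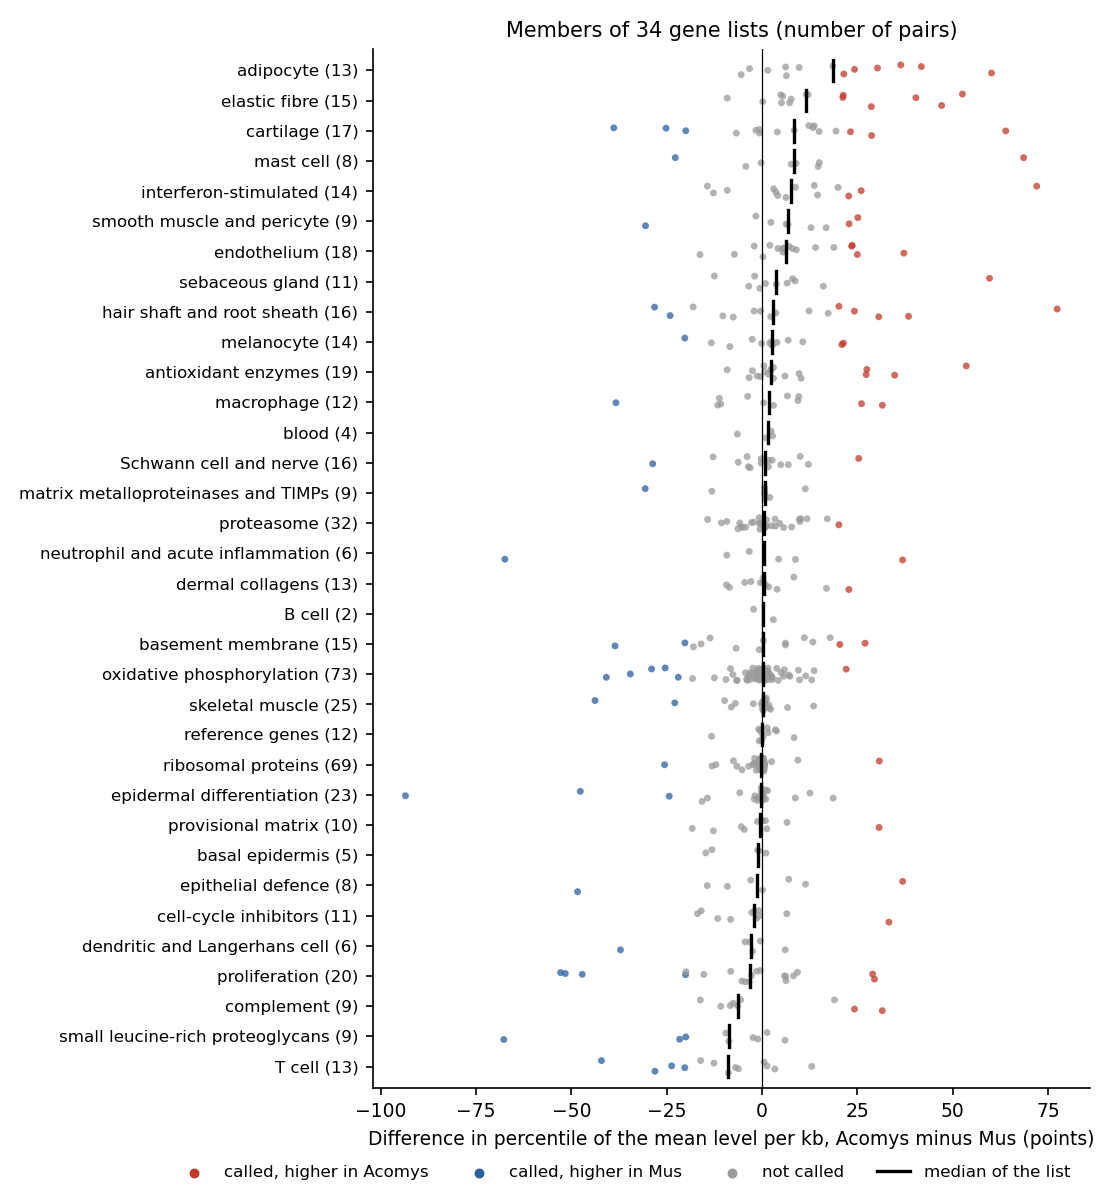
Difference in percentile points (*Acomys* minus *Mus*, horizontal axis) for each paired member of 34 gene lists, with the number of pairs in parentheses and a black bar at the median. Red and blue points were called higher in *Acomys* and in *Mus*. List medians run from 18.5 points for adipocytes to -8.9 points for T cells.

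Of 23 differentiation genes, 0 were called higher in *Acomys* and 3 higher in *Mus*, with a median of -0.3 points. These counts became 0 and 2 unscaled, with a median of -0.444 points, and 1 and 3 summed, with a median of -1.18. The list lay at a median percentile of 95.6 in *Acomys* and 97.5 in *Mus*, where percentiles can hardly differ. By a log2 difference of at least 1, 3 were higher in *Acomys* and 6 in *Mus*, where 18.2% and 16.6% of all pairs were. The median log2 difference was -0.49. *Tgm3*, a transglutaminase of cornified layers and hair, had 47.8, 52.2 and 75.8 normalised reads in *Acomys* and 389.6, 494 and 569 in *Mus*, a difference of -47.7 points but of -3.16 points summed, which ends the call. *Alox12b*, a lipoxygenase of the skin barrier, had 379, 332 and 383 against 597, 714 and 558, a difference of -24.4 points, or -18.4 unscaled and then not called. *Flg2*, a filaggrin relative, differed by -93.5 points through an alignment of 252 bases, and by 0.14 points once all components of the gene were summed. *Krtdap* was not called at -2.06 points, but its log2 difference was -3.98 ± 0.12. *Flg*, filaggrin, had 384, 299.9 and 1718 in *Acomys*, highest in library 3, against 918, 1219 and 664, from a component that also matches *Gstm1*. Of 5 basal epidermal genes 0 were called. *Dst*, the hemidesmosome linker, was at -14.8 points, but at -2.44 unscaled and 0.39 summed.

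Of 16 hair shaft and root sheath genes, 5 were called higher in *Acomys* and 2 higher in *Mus*, where 9.66% and 9.38% of all pairs were. The median was 2.9 points and ran from -0.11 without *Acomys* library 3 to 6.85 without *Mus* library 2. With unscaled levels 2 and 2 were called (median -1.22 points), and with summed components 5 and 2 (median 4.7). Beside *Krt71*, the root sheath keratin *Krt72* had 21.6, 24.7 and 35.6 normalised reads in *Acomys* and 0, 1.35 and 4.78 in *Mus*, and *Krt35*, a hair shaft keratin in a component with *Krt33a* and *Krt34*, had 79.3, 122 and 106 and 0, 8.13 and 1.59. *Mus* library 1 was the lowest of its group for each of these keratins. *Krt25*, another root sheath keratin, had 68.5, 97.2 and 209 against 3.60, 58.2 and 50.6 from a component that also matches *Krt27* and *Krt28*, and was not called at 17.3 points. *Lef1*, a factor of hair matrix cells, was called at 20.1 points but not without *Acomys* library 1 (18.8) or *Mus* library 1 (18.6). *Tchh*, trichohyalin, had 63.1, 67.5 and 203 in *Acomys*, high in library 3, and 63.5, 141 and 110.0 in *Mus*. It was called at 38.4 points, but lay at 21.7 points without *Acomys* library 3 and at -2.59 unscaled. *Msx2*, a homeobox factor of the hair follicle, and *S100a3*, a calcium-binding protein of hair, were called higher in *Mus* (-28.2 and -24.1 points). Unscaled, *Krt72* (13.97 points), *Lef1* (14.6) and *S100a3* (-6.57) lost their calls. In the sebaceous gland list 1 of 11 was called by points. By a log2 difference of at least 1, 5 were higher in *Acomys* and 0 in *Mus*, where 18.2% and 16.6% of all pairs were. *Awat2*, an enzyme of wax ester synthesis, had 616, 540.1 and 598 in *Acomys* and 30.0, 21.7 and 22.3 in *Mus*, a difference of 59.6 points (log2 3.47 ± 0.14, adjusted p = 6.5e-08). Its relative *Awat1* was not called at 16.03 points, with a log2 difference of 2.29 ± 0.15, but was called at 27.5 points unscaled. Calls numbered 2 and 1 unscaled (median 4.11 points) and 1 and 0 summed (median 2.48).

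Of 19 antioxidant enzymes, 4 were called higher in *Acomys* and 0 higher in *Mus*, with a median of 2.3 points, where 9.66% of all pairs were called higher in *Acomys*. For *Acomys* and *Mus* the counts were 4 and 0 unscaled (median 4.42 points) and 4 and 0 summed (median -0.451). *Nqo1* had 705, 726 and 762 normalised reads in *Acomys* and 75.5, 65.0 and 84.5 in *Mus*. Libraries within a species lay close together, and the difference was 53.5 points (log2 3.14 ± 0.10, adjusted p = 2.1e-08). *Gclc* and *Gclm*, the catalytic and modifier subunits of the enzyme that limits glutathione synthesis, were higher in *Acomys* as a pair. *Gclc* had 1355, 1370 and 1380 against 324, 305 and 349, a difference of 34.8 points, and *Gclm* 548, 614 and 623 against 153, 162 and 166, a difference of 27.4 points. *Gpx3*, the secreted glutathione peroxidase, had 1981, 1625 and 1951 against 216, 189.6 and 183 (log2 2.64 ± 0.09, adjusted p = 5.0e-08). Genes of the same response did not all follow, since *Hmox1*, haem oxygenase, was at 403, 451 and 397 against 247, 324 and 296, and *Txnrd1*, thioredoxin reductase, differed by -9.16 points. The superoxide dismutases *Sod1*, *Sod2* and *Sod3* were within 2.97 points.

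Of 13 T cell genes, 0 were called higher in *Acomys* and 4 higher in *Mus*, with a median of -8.9 points, where 9.38% of all pairs were called higher in *Mus*. The list had 0 and 2 calls unscaled (median -9.77 points) and 0 and 4 summed (median -9.34). *Cd3g* had 5.41, 13.3 and 13.8 normalised reads in *Acomys* and 106, 52.8 and 97.2 in *Mus*, a difference of -42.1 points (log2 -3.09 ± 0.36, adjusted p = 1.2e-04). *Cd3e*, of the same receptor complex, had 14.4, 10.2 and 12.6 against 88.7, 43.3 and 71.7 and differed by -28.1 points, and *Cd247* and the co-receptor *Cd28* by -23.7 and -20.3 points. None of these 4 overlapped between species, which was also so for 5241 of the 13514 pairs in the same direction. Unscaled, *Cd3g* lay at -20.3 points, and *Cd3e* (-15.5) and *Cd247* (-13.9) lost their calls. *Cd28* lay at -19.4 points without *Acomys* library 1 and at -18.6 without *Mus* library 2, which ends its call. *Cd4* was not called and had 47.8, 65.5 and 50.5 against 40.8, 42.0 and 38.2, and *Cd2*, an adhesion receptor, was not called at 13.01 points. Summed, the list held 0.0037%, 0.0048% and 0.0043% of paired reads per kb in *Acomys* and 0.011%, 0.0078% and 0.011% in *Mus*. *Cd207*, langerin of Langerhans cells, had 64.0, 79.8 and 60.8 against 186, 175 and 159 and was called higher in *Mus* (-37.1 points, -21.5 unscaled). It was the 1 member called of 6 paired dendritic and Langerhans cell genes, whose median was -2.9 points. The 2 paired B cell genes were at under 10 normalised reads in every library.

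Of 12 macrophage genes, 2 were called higher in *Acomys* and 1 higher in *Mus*. Unscaled, the counts were 1 higher in *Acomys* and 1 higher in *Mus* (median 0.929 points), and summed 1 and 1 (median -1.21). *Adgre1*, which encodes F4/80, had 7.21, 10.2 and 4.59 normalised reads in *Acomys* and 140.2, 179 and 162 in *Mus*, a difference of -38.3 points (log2 -4.81 ± 0.29, adjusted p = 6.4e-07). *Mertk*, a receptor for dead cells, had 528, 546 and 559 against 165, 133 and 137 and was called higher in *Acomys*. *Cd163*, a scavenger receptor, had 710.0, 832 and 698 against 199, 289 and 356 and was also called higher in *Acomys*, but lay at 19.6 points unscaled and 19.3 summed, which ends the call. *Mrc1*, the mannose receptor, was not called at 9.61 points. The part of macrophage number in the *Mmp12* and *Adgre1* differences was not tested. *Cxcr2*, the chemokine receptor of neutrophils, had 0.90, 0 and 1.15 in *Acomys* and 373, 362 and 385 in *Mus*, a difference of -67.5 points. Of the 6 paired neutrophil and acute inflammation genes, 1 was called in each direction, with a median of 0.47 points. The antimicrobial peptide gene *Camp* had 48.6, 51.1 and 35.6 in *Acomys* and no read in any *Mus* library, with its *Mus* number placed at a posterior of 0.952. Of 8 mast cell genes, *Hdc*, described above, was the only one called higher in *Acomys* and *Cma1*, mast cell chymase, the only one called higher in *Mus* (-22.8 points, -9.35 unscaled and then not called). The tryptase *Tpsb2* and the carboxypeptidase *Cpa3* were not called, at 15.0 and 14.7 points, but *Cpa3* was called at 34.1 points unscaled. The median of the mast cell list was 8.3 points. The counts for *Acomys* and *Mus* were 2 and 0 unscaled (median 11 points) and 1 and 1 summed (median 3.8).

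Interferon-stimulated genes had 3 of 14 called higher in *Acomys* and 0 higher in *Mus*, with a median of 7.5 points. These counts became 3 and 1 unscaled, with a median of 7.76 points, and 2 and 1 summed, with a median of 7.07. *Mx2*, an antiviral GTPase, had 792, 1090 and 522 normalised reads in *Acomys* and 14.4, 6.77 and 7.97 in *Mus*, a difference of 72.0 points (log2 5.35 ± 0.31, adjusted p = 2.8e-06). *Acomys* library 2 was the highest of its group and library 3 the lowest for *Mx2*, for *Bst2* with 103, 119.7 and 76.9 against 32.4, 21.7 and 17.5, and for *Ifit1* with 114, 178 and 65.4 against 27.6, 15.9 and 11.2. *Ifit1* was not called at 19.9 points, but was called at 22.4 points unscaled. Leaving out *Acomys* library 2 left 2 members called. *Bst2* lay at 16.8 points unscaled and 19.3 summed, and *Oas1a*, an antiviral RNA synthetase called at 22.7 points, at 18.6 and 18.1, which ends both calls. *Oas1a* also lost its call without *Acomys* library 2 (18.99 points). *Eif2ak2*, a kinase activated by double-stranded RNA, was not called at -14.4 points but was called higher in *Mus* unscaled (-26.7) and summed (-20.6). Sensors of foreign RNA, *Ddx58* and *Ifih1*, were not called and lay at -12.8 and -9.14 points. Of 9 complement genes, 2 were called higher in *Acomys*, *Cfd* among them, and 0 higher in *Mus*, but the median was -6.4 points. By a log2 difference of at least 1 the counts were 2 and 3. *C3*, the central component, was not called with 958, 1260 and 1039 against 3191, 2342 and 2081, but was called higher in *Mus* at -22.8 points summed. With unscaled levels 2 and 0 were called (median -4.22 points), and with summed components 2 and 1 (median -7.79).

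Endothelial genes had 4 of 18 called higher in *Acomys* and 0 higher in *Mus*, with a median of 6.3 points, where 9.66% of all pairs were called higher in *Acomys*. *Tie1*, an endothelial receptor in a component with *Fgfr3*, differed by 37.2 points, *Lyve1* of lymphatic vessels by 24.96, *Eng* by 23.6 and *Robo4* by 23.5. Unscaled, *Lyve1* (13.2 points) and *Eng* lost their calls, and summed, *Eng* (16.9) and *Robo4* (18.1) lost theirs. Calls numbered 6 and 0 unscaled (median 11 points) and 3 and 1 summed (median 2.92). The member called higher in *Mus* when summed was *Egfl7*, a vessel matrix protein, which lay at -16.3 points in the paired component, -21.3 summed and 21.9 unscaled. *Lyve1* had 219, 254 and 247 normalised reads in *Acomys* and 93.5, 115 and 113 in *Mus*, without overlap. *Cdh5*, the cadherin of endothelial junctions, and *Vwf* were not called, at -7.27 and 5.46 points. *Pdgfrb*, a receptor of pericytes and fibroblasts, had 2587, 2597 and 2129 against 759, 707 and 708 and was called higher in *Acomys* at 25.1 points, though not at 13.5 points unscaled. The 25 skeletal muscle genes lay at a median percentile of 98.7 in *Acomys* and 98.4 in *Mus*, where percentiles can hardly differ. By a log2 difference of at least 1, 1 was higher in *Acomys* and 4 in *Mus*. By points only *Myom2* and *Mybpc2*, sarcomere proteins of fast fibres, were called, both higher in *Mus*. *Mybpc2* lost its call unscaled (-15.0 points) and without *Mus* library 1 (-18.6). For *Acomys* and *Mus* the counts were 0 and 1 unscaled (median 0.836 points) and 0 and 2 summed (median 0.207). Schwann cell genes had a median of 0.7 points over 16 members, with the adhesion molecules *Ncam1* called higher in *Acomys* and *L1cam* higher in *Mus*. Unscaled, *Ncam1* lay at 3.803 points, which ends its call. The list had 0 and 1 calls unscaled (median 0.862 points) and 1 and 1 summed (median -1.98). Pigment genes had a median of 2.5 points over 14 members. *Tyr*, tyrosinase, was called higher in *Mus* (-20.3 points), and the receptors *Kit* and *Ednrb* higher in *Acomys* (20.9 and 21.3 points). The *Tyr* call was lost without *Acomys* library 2 or 3 or *Mus* library 2 or 3, at -19.6 to -18.6 points, and the median of the list ran from 0.36 to 3.1 points over the libraries left out. *Kit* lay at 12.2 points unscaled and *Ednrb* at 14.8 summed, which ends those calls. Leaving out *Acomys* library 1 (18.5 points) or *Mus* library 1 (16.6) also ended the *Ednrb* call, and leaving out *Acomys* library 2 (19.01) or *Mus* library 2 (19.2) the *Kit* call. Unscaled, the counts were 1 higher in *Acomys* and 1 higher in *Mus* (median 4.13 points), and summed 1 and 1 (median -0.0629). *Mus* library 1 was low for pigment as for hair, with *Dct* at 85.0, 242 and 175 and *Tyrp1* at 119.8, 289.8 and 204 in the *Mus* libraries. Without *Mus* library 1, 4 hair genes were called higher in *Acomys* and 2 higher in *Mus* (median 0.47 points). For pigment genes the counts were then 1 and 2 (median 0.36). The cause of that library's low levels was not tested.

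**Figure D5:**
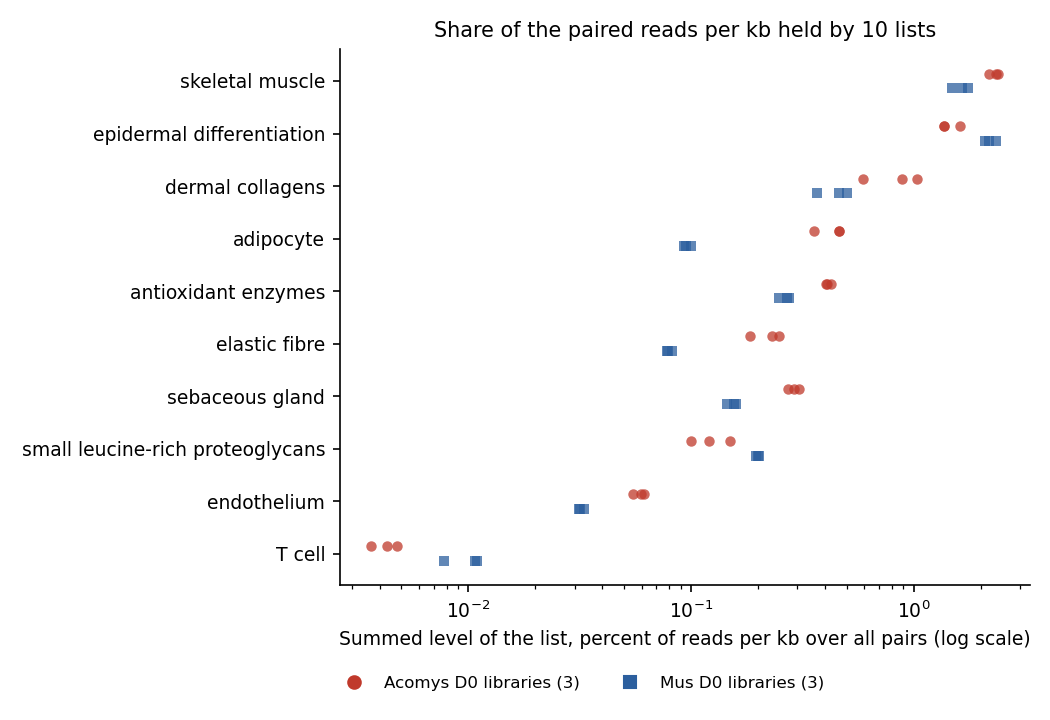
Summed level of 10 gene lists as percent of all paired reads per kb (log axis), with 3 red circles for the *Acomys* D0 libraries and 3 blue squares for the *Mus* D0 libraries. Adipocyte genes lie at 0.36% to 0.46% in *Acomys* against 0.09% to 0.10% in *Mus*, and T cell genes at 0.0037% to 0.0048% against 0.0078% to 0.011%.

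Of 20 proliferation genes, 2 were called higher in *Acomys* and 4 higher in *Mus*, with a median of -3.1 points. The counts for *Acomys* and *Mus* were 1 and 5 unscaled (median -0.795 points) and 3 and 4 summed (median -6.73). *Tyms*, thymidylate synthase, had 82.0, 105 and 71.9 normalised reads in *Acomys* and 1321, 1598 and 1538 in *Mus* (log2 -2.97 ± 0.13, adjusted p = 2.0e-07). *Plk1*, a mitotic kinase, had 73.0, 81.8 and 76.9 against 368, 425 and 368, a difference of -52.9 points, or -34.1 summed. *Birc5*, survivin, was at -47.2 points in the paired component, a call for *Mus*, but at 25.06 points when its components were summed. The helicase subunit *Mcm5* was higher in *Acomys* by 29.5 points, as was *Mcm2*, whose component also matches *Mcm4*. *Mcm4*, a subunit of the same helicase, was itself called higher in *Mus* at -20.1 points, but not without *Acomys* library 2 or 3 or *Mus* library 2 or 3, at -19.9 to -18.5 points. Unscaled, *Mcm5* lay at 13.98 points and was not called. *Mki67*, a general marker of cycling cells, was not called, with 1779, 1453 and 1235 in *Acomys* and 2429, 2940 and 2260 in *Mus* (5.86 points, -4.14 unscaled). *Top2a*, a topoisomerase of dividing cells, lay just outside the threshold at -19.97 points. It passed the threshold in several alternatives but lay at -11.8 points summed. Of 11 inhibitors of the cell cycle, only *Cdkn2b* was called, with 52.3, 72.6 and 84.9 in *Acomys* and no read in any *Mus* library, with its *Mus* number placed at a posterior of 0.973. *Cdkn1a*, which encodes p21, had 211, 184 and 228 against 732, 720.5 and 618, a difference of -15.97 points that was not called, and a log2 difference of -1.24 ± 0.10. Unscaled it was called higher in *Mus* at -35.3 points, and summed it lay at -6.96. These counts became 1 and 1 unscaled, with a median of 1.7 points, and 1 and 0 summed, with a median of -6.96. *Cdkn1b*, which encodes p27, had 705, 749 and 722 against 972, 999 and 1006, at -0.9 points, and *Rb1*, the retinoblastoma protein, was at -2.06 points.

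The reference, ribosomal protein and oxidative phosphorylation lists had median percentiles of 94.8 or more in both species, where percentiles can hardly differ. Of 12 common reference genes, 0 were called either way, with a median of 0.1 points. *Tbp*, the TATA-binding protein, had 227, 194 and 224 normalised reads in *Acomys* and 157, 153 and 158 in *Mus*, and lay at -13.3 points, or 1.81 unscaled. Of 69 ribosomal protein genes, 1 was called in each direction, and of 32 proteasome genes *Psmd5*, a proteasome assembly factor, was the 1 called higher in *Acomys*. The *Psmd5* call was lost summed (13.6 points) and without *Acomys* library 2 or 3 or *Mus* library 1 or 3 (18.5 to 19.8 points). With unscaled levels 3 and 0 were called (median 8.09 points), and with summed components 0 and 0 (median -2.15). By a log2 difference of at least 1, 3 ribosomal protein genes were higher in *Acomys* and 28 higher in *Mus*, with a median of -0.72, where 18.2% of all pairs were higher in *Acomys* and 16.6% in *Mus*. Of 73 genes of oxidative phosphorylation, 1 was called higher in *Acomys* and 5 higher in *Mus*, or 3 and 14 by log2. Calls numbered 4 and 3 unscaled (median 5.19 points) and 0 and 6 summed (median -2.4). The member called higher in *Acomys*, *Ndufs4*, a subunit of respiratory complex I, was not called summed (17.7 points) or without *Mus* library 3 (19.4). The 5 called higher in *Mus* by points were *Cox7a2*, *Atp5d*, *Ndufb10*, *Ndufb9* and *Cox7a2l*, whose *Mus* transcripts were 635 to 1080 bases and *Acomys* contigs 1451 to 6163 bases long. Without division by length *Cox7a2* and *Ndufb9* lay 11.7 and 5.19 points higher in *Acomys*. The ribosomal members called were *Rpl29*, with 2219, 2139 and 2271 in *Acomys* and 73.5, 91.3 and 73.0 in *Mus*, and *Rps4l*, called higher in *Mus* at -25.6 points but at -10.4 unscaled and then not called. Ribosomal protein genes have close copies in the genome among which reads can be split, so these values are uncertain.

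Of 4 genes of blood, 0 were called by points and 3 were higher in *Acomys* by log2, with a median of 1.80. For *Acomys* and *Mus* the counts were 2 and 0 unscaled (median 11.7 points) and 0 and 0 summed (median 2.36). The globin genes *Hba-a1* and *Hbb-bs* were those called unscaled (24.1 and 23.7 points). All 4 blood genes together held 0.153%, 0.150% and 0.245% of paired reads per kb in the *Acomys* libraries and 0.071%, 0.020% and 0.050% in the *Mus* libraries. The part of blood in the differences above was not tested. Of 9 smooth muscle genes, *Tagln* and *Pdgfrb* were called higher in *Acomys* and *Smtn* higher in *Mus*, with a median of 6.8 points. *Smtn* lay at -17.2 points unscaled and *Tagln* at 16.2 summed, which ends those calls. The list had 2 and 0 calls unscaled (median 4.38 points) and 2 and 1 summed (median 10.5). *Tagln*, an actin-binding protein of contractile cells, had 445, 422 and 450.2 normalised reads in *Acomys* and 128, 128 and 131 in *Mus*, and *Smtn*, smoothelin, 359, 277 and 320.2 and 496, 509 and 488. Of 8 genes of epithelial defence, *Camp* was called higher in *Acomys* and *Wfdc2* higher in *Mus*. *Wfdc2*, a secreted protease inhibitor, had normalised read means of 8.07 in *Acomys* and 74.7 in *Mus*, a difference of -48.4 points, or -19.4 unscaled and then not called. Unscaled, the counts were 1 higher in *Acomys* and 0 higher in *Mus* (median 1.59 points), and summed 1 and 1 (median -3.74).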

How the data were processed

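Uninjured ear RNA of 3 *Acomys* and 3 *Mus* animals was compared. As deposited, the tables of each species hold the ratio of the D0 mean to the mean of a later day, once raw and once shrunken, which the authors computed with EBSeq from RSEM gene counts after median-ratio scaling within each table. The deposited alignment table holds the percent identity of each BLASTN hit of an *Acomys* contig to a *Mus* transcript, computed by the authors. These ratios hold the authors' comparisons of days and were used only to solve for the D0 values, and the authors' posterior probabilities were not used. Solving 4 tables together gave the reads of 3 libraries per species, within 0.001 of a whole number for 94.5% of *Acomys* values and 66.1% of *Mus* values and at a multiple of 0.01, the smallest unit of RSEM counts, for 99.96% and 98.99%. Nothing but number and size ties these libraries to animals. Library totals were 18659216, 16425723 and 14888622 in *Acomys* and 7873749, 6905179 and 5922744 in *Mus*. A mean of 10 normalised reads stands for 29.6 reads over the 3 *Acomys* libraries and 22.0 over the 3 *Mus* libraries, with counting errors of 18.4% and 21.3%.

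*Mus* tables give gene numbers without names. Numbers were joined to transcripts through the sorted order of the deposited reference, kept at a posterior of at least 0.95, and anchored on 1992 known pairings from a supplementary sheet. When each known pairing was hidden in turn, 1794 were placed correctly, 6 wrongly and 192 not at all, and with runs of 10 hidden 1687 were correct, 10 wrong and 295 not placed. With runs of 50 hidden 1620 were correct, 54 wrong and 318 not placed. Transcripts were named by minimap2 2.31 against GENCODE on GRCm38, which is mm10. A pair was kept where contig and transcript were each other's best hit by bit score, below 99% identity.

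Levels are normalised reads of the whole component or gene number per kb of the aligned contig or transcript. Normal scores of within-library ranks were tested with limma 3.58.1 (trend, 3 against 3 libraries, R 4.3.3), Benjamini-Hochberg adjusted over all 13514 pairs, and called at an adjusted p under 0.05 and 20 percentile points. Log2 differences used limma on centred log2(reads + 1) per kb. The recovery of library reads and the rank test were run on simulated data, but the joining of gene numbers and the pairing were not simulated. Tables were handled with pandas 2.3.3 and NumPy 2.4.6 under Python 3.11.15, and correlations came from SciPy 1.17.1.

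Named genes were the 12 largest differences in each direction (mean of at least 10 in both species, alignment of at least 500 bases, same direction of at least 20 points without length scaling and with summed components), the 10 highest levels per species, the highest and lowest member and up to 6 others of each list, and a fixed set (*Tbp*, *Col1a1*, *Col3a1*, *Lum*, *Dcn*, *Fbn1*, *Tnc*, *Fn1*, *Cdkn1a*, *Cdkn1b*, *Rb1*, *Mki67*, *Krt1*, *Krt5*, *Krt17*, *Krt71*, *Mmp13*, *Penk* and *A2m*). Members named beyond that rule, chosen after their values were seen, were *Acan*, *Bgn*, *Cd4*, *Cdh5*, *Col1a2*, *Eln*, *Fabp4*, *Flg*, *Hmox1*, *Ifih1*, *Krt25*, *Krtdap*, *Lama3*, *Lipe*, the superoxide dismutases, *Sox9* and *Vwf*. The comparison, its members and the 34 lists were chosen with earlier results of these data known, so none is independent evidence. Alternatives numbered 17 planned and 4 added after seeing the data. A few members that this rule names are not reported here.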

Additional observations from a re-analysis of the deposited data

Results flagged for a closer look

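Components at least 99% identical to a *Mus* transcript, which were kept out of the pairs, held 1.57%, 1.55% and 1.62% of the reads of *Acomys* libraries 1, 2 and 3, a signal in data that the comparison itself did not use, though an alternative kept these hits. Of the 290 components, 54 had a mean of at least 10 normalised reads. The 236 below that mean had 87.5% of their normalised reads in library 3, were highest there in 212 cases, and had reads in library 3 alone in 112 cases. Libraries 1 and 2 were the only ones with reads in 2 and 3 cases. The level of these components in library 3 was a median of 0.149% of the *Mus* mean of the same gene, and that *Mus* mean had a median of 3518 normalised reads. The component of the near-identical *Lum* contig had 0, 0 and 10.3 normalised reads. That of a *Krt5* contig aligned over 362 bases had 0, 1.02 and 28.7.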

How the results depend on the processing

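No paired analysis was possible because the animals of the 2 species share no number or batch in the labels. The Spearman correlation of 0.814 was 0.8333 without division by length, 0.7903 with components summed, 0.7718 where each species had a mean of 10 or more, 0.8051 with hits of 99% identity or more kept, 0.8023 with alignments of at least 500 bases, 0.8084 with the listed gene numbers alone, 0.8252 in components that match 1 gene, 0.7942 at contigs 0.5 to 2 times the transcript, and 0.8112 to 0.8143 when single libraries were left out. Listed numbers alone, 1987 pairs, gave 230 pairs called higher in *Acomys* and 210 higher in *Mus*, and left 1 of the 24 genes with the largest differences. A threshold of 30 points gave 597 and 561 pairs, and a log2 difference of at least 1 gave 2457 and 2241. Among named genes called under either setting, the sign turned without division by length for *Cox7a2* (11.66 points), *Egfl7* (21.93), *Ndufb9* (5.187) and *Tchh* (-2.59). Among the same, summed components turned *Birc5* (25.06), *Flg2* (0.1406) and *Gm26917* (0.0296). Hits of 99% identity or more, when kept, turned *Rps15a* (-76.86) and *Tchh* (-10.86). The causes were not tested. Calls of other named genes were also lost, 33 without division by length and 14 with components summed, and 22 and 13 were gained. Signs of uncalled named genes turned as well. The choice of the 24 genes used 4 of the alternatives, so their calls there say nothing about stability. Where present, all were called the same way under the others, 23 of them where a symbol had 1 *Mus* number, 18 within the contig length limits and 17 in components that match 1 gene. The genes were picked for their large differences in the same reads, so these calls are no evidence of stability. Alternatives with D0 means from the D5, D15 or D20 tables used the same recovered reads and rank scores. Their outcome was nearly fixed in advance and says nothing about stability either. Lists 5 points or more from 0 numbered 10 and, over the alternatives, 10 to 13, but the medians of 16 of 34 lists moved without division by length (oxidative phosphorylation from 0.3 to 5.19, proteasome from 0.5 to 8.09, blood from 1.7 to 11.7) and those of 23 with components summed (elastic fibre from 11.6 to 7.79, endothelium from 6.3 to 2.92). With the listed gene numbers alone, 17 of the lists that still had members moved and 6 did not. With alignments of at least 500 bases 12 lists moved and 21 did not, and the same numbers held within the contig length limits. *Mus* libraries were smaller (5922744 to 7873749 reads against 14888622 to 18659216), so values of low genes carry more counting error there.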

Other observations

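Some abundant skin genes had no pair, because their best contig was at least 99% identical to *Mus* or the best hits were not mutual, and are given as values only. Identity and length are those of the best contig, but reads are those of its whole component, which can hold other contigs. *Dcn*, decorin, had a contig 99.74% identical to *Mus*, in a component with 16650, 16810 and 15250 normalised reads in the *Acomys* libraries. The *Mus* gene had 8519, 7916 and 7491. *Krt1*, the partner of the suprabasal keratin *Krt10*, had a best alignment of 517 bases at 100% identity. The component of that contig had 30980, 31120 and 31850 in *Acomys*, and the *Mus* gene had 1926, 2401 and 2163. The best contig of *Krt5*, the basal keratin, was 93.47% identical over 658 bases. Its component had 7630, 8311 and 8807 in *Acomys*, and the *Mus* gene had 20020, 17780 and 18960. The *Krt5* contig belongs to a component paired with *Krt78*, so these reads cannot be assigned to *Krt5* alone. The best contig of *Krt17* belongs to a component paired with *Krt15*, and no value is given for it. *H2-Eb1*, a class II antigen-presenting chain, had 1093 and 995 normalised reads in *Mus* libraries 1 and 2 and 23.9 in *Mus* library 3.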
